A study of Mus musculus with 15 samples.

Results

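One-carbon metabolism and nucleotide synthesis were examined in CD8+ T cells through 30 genes, fixed by symbol and mapped to GENCODE M21 identifiers, among 55536 genes counted in each library. The list holds 3 genes of serine synthesis, 5 of the folate cycle, 11 of purine synthesis, 5 of pyrimidine synthesis and 6 of deoxynucleotide supply. They were named by their place in the pathway, with no threshold on a measured value. The cells were OT-I T cells, whose transgenic receptor recognizes the ovalbumin peptide SIINFEKL, transferred into C57BL/6J recipients. In the Ag group (n = 5 libraries), recipients received the peptide with control rat IgG. In the Ag+Costim group (n = 5 libraries), they received the same peptide with agonist antibodies against CD134 (OX40) and CD137 (4-1BB). Donor-derived CD8+ cells were sorted from spleen and lymph nodes, at day 4 by the labels and somewhat earlier by the methods of the study, which describes each library as an individual biological replicate. All cells carried 1 receptor specificity, both groups saw antigen, and animals of both sexes and of a range of ages were used in the study. Naive OT-I libraries were not analysed here.

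A T cell that has met antigen enlarges and then divides, and each division requires a full set of new nucleotides. Serine made from a glycolytic intermediate, or taken up, gives a carbon unit to folate, in mitochondria and in the cytosol. Folate carries these units to the purine ring and to thymidylate. Purines are built stepwise on activated ribose, pyrimidines on carbamoyl phosphate and aspartate, and ribonucleotide reductase converts ribonucleotides to the deoxynucleotides of DNA. Many of these genes are known targets of Myc, and those of DNA precursors are known targets of E2F factors.

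Libraries held between 59598556 and 639070261 estimated counts, which come from amplified cDNA without molecular identifiers and so are not counts of independent molecules. All 7 CD8 T cell markers (Cd8a, Cd8b1, Cd3d, Cd3e, Cd3g, Cd247 and Lck) were abundant, with a summed level of 3801 to 7269 CPM (counts relative to library size, scaled by TMM) in Ag and 5215 to 6170 CPM in Ag+Costim. Other cell types left traces that differed among the Ag libraries. The summed level of 6 B cell markers was 132 CPM in Ag replicate 1, 33.2 in replicate 2, 342 in replicate 3, 185 in replicate 4 and 40.2 in replicate 5, against 30.4 to 50.6 in Ag+Costim, and Pax5 was at 0 in Ag replicates 2 and 5. The 6 erythroid markers summed to 14.7 to 1103 CPM in Ag, highest in replicate 3, and to 3.80 to 39.8 in Ag+Costim. The 7 myeloid markers summed to 38.5 to 130 CPM and 67.1 to 158 CPM, and 4 CD4 T cell markers to 3.74 to 26.4 CPM and 3.16 to 8.20 CPM. A count was present for 20714 genes in Ag replicate 5, 21779 in replicate 2 and 40441 to 51778 in the other 3 Ag libraries, against 28727 to 30340 in Ag+Costim. The part of these differences in the results on nucleotide genes was not tested.

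Every stretch of a member's promoter is shown that holds the letters bound by Myc and Max (E-box, CACGTG) or by E2F factors (TTTCCCGC, TTTCGCGC, TTTGCCGC or TTTGGCGC), because these are the regulators the pathway is best known for. RefSeq windows of 250 bases before to 50 bases after each start (GRCm38.p6) were matched for 28 of 30 members, all but Pfas and Dhodh, and were searched on both strands. The stretches of 30 bases below read 5′ to 3′ on the strand of the gene, with the motif in capitals.
Atic (chr1:71557137-71557166, + strand): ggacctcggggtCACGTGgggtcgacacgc
Impdh2 (chr9:108560314-108560343, + strand): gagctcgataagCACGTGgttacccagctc
Paics (chr5:76951087-76951116, + strand): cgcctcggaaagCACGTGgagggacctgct
Nme1 (chr11:93968273-93968302, − strand): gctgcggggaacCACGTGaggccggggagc
Nme1, other start (chr11:93968037-93968066, − strand): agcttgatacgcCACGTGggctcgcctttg
Tyms (chr5:30073669-30073698, − strand): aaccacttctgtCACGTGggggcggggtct
Ppat (chr5:76951771-76951800, − strand): gagcagaccgcGCGGGAAAaaagggcagtg
Ppat, nearer the start (chr5:76951718-76951747, − strand): aggatcagaggGCGGGAAAgggaggtgcaa
Prps2 (chrX:167382700-167382729, − strand): cctgctgctgcgtTTTCCCGCttcaccagc
The E-box was found in 5 of 28 members (17.9%), against 8.09% of 27025 genes with a window. An E2F site was found in 2 of 28 (7.14%), Ppat and Prps2, against 2.60% of genes, and the Ppat match nearer the start shares bases with a GC box. A GC box (GGGCGG) was found in 21 of 28 members against 38.2% of genes, a CCAAT box (CCAAT) in 14 of 28 against 41.1%, the half-site TGACGT in 5 of 28 against 8.37%, an amino acid response element (TGATGNAA) in 1 of 28 against 4.51%, and the NRF1 palindrome in 2 of 28 against 1.07%. These counts describe letters in a short window and carry no test. The windows of Cad, Rrm1, Rrm2, Tk1 and Dut, which are described below, held neither the E-box nor an E2F site.

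Most members were higher on average in Ag+Costim, but no member passed the test, and the 5 Ag libraries differed widely from one another. All 30 members passed the filter on low counts and had a mean of at least 10 CPM. In the edgeR quasi-likelihood test, 0 of 30 members were called at a Benjamini-Hochberg (BH) adjusted p under 0.05, as were 0 (0%) of 24262 genes tested. The lowest adjusted p of a member was 0.19, for Pfas and Cad. The log2 fold change was above 0 in 29 of 30 members, with a median of 0.68, and ranged from −0.02 (Ctps2) to 1.26 (Cad). The median was 0.24 over the 8626 genes with a mean of at least 10 CPM and −0.32 over all genes tested, and other scalings moved the first of these to between 0.00 and 0.12. The median of the members lay 0.44 above that of the expressed genes under TMM scaling and 0.48 to 0.55 above it under the other 3 scalings.

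Without adjustment, 7 of 30 members (Mthfd1, Prps2, Pfas, Atic, Impdh1, Cad and Dhodh) had p under 0.05 and were higher in Ag+Costim, against 7.89% of all genes tested. Over all genes, 4501 had an unadjusted p under 0.05 in either direction. DESeq2 called 2 of 30 members higher, Cad (log2 fold change 1.15, adjusted p = 0.012) and Pfas (1.03, adjusted p = 0.012), against 2.57% of genes. Limma voom, which weighted each library by its quality, called 29 members higher, all but Ctps2, against 25.7% of genes. That fit gave Ag replicates 2 and 5 the weights 0.0986 and 0.0656 and Ag replicates 1 and 4 the weights 1.42 and 2.00, so its fold changes rest mostly on replicates 1 and 4. The shares of genes in this paragraph include weakly expressed genes, whereas every member had a mean of at least 10 CPM. Shares among expressed genes alone were not counted for these tests.

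**Figure D1:**
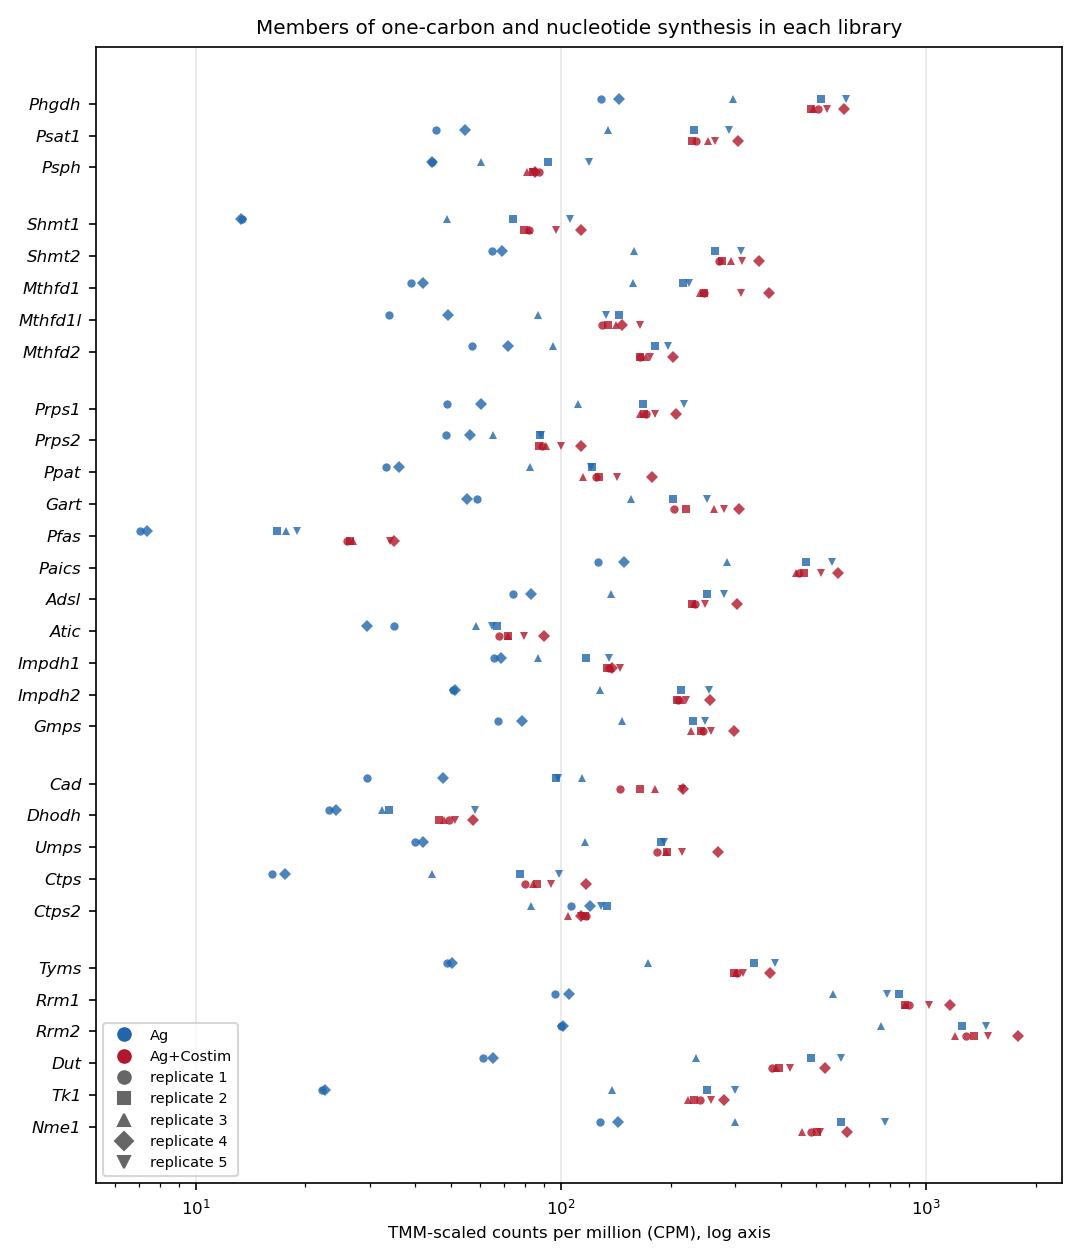
TMM-scaled CPM (log axis) of the 30 members, in rows grouped by branch, in each of 5 Ag (blue) and 5 Ag+Costim (red) libraries, with the marker shape giving the replicate number. Ag replicates 1 and 4 are the lowest Ag libraries for 29 members, and the Ag+Costim libraries lie close together.

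The spread had the same shape for nearly every member. Ag replicates 1 and 4 were the lowest Ag libraries for 29 of 30 members, the exception being Ctps2, and Ag replicate 3 was the next lowest for 27. Both of those lowest libraries lay below all 5 Ag+Costim libraries for 29 members, and Ag replicate 3 did so for all 30. Ag replicate 2 or 5 reached the lowest Ag+Costim library or exceeded it for 25 members. The groups did not overlap for 5 of 30 members (16.7%), all higher in Ag+Costim: Mthfd1, Pfas, Atic, Cad and Rrm1. Over all genes tested, 4.48% were higher without overlap, and over genes with a mean of at least 10 CPM, 11.3% were. No member was lower without overlap, against 0.220% of those expressed genes. The count was 11 of 30 without Ag replicate 5 (19.5% of expressed genes) and 2 of 30, Cad and Pfas, under upper quartile scaling (3.73%). Pfas was separated under each of the 4 scalings and without any 1 library, whereas Cad overlapped under scaling to total counts. Atic was separated under TMM scaling only.

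**Figure D2:**
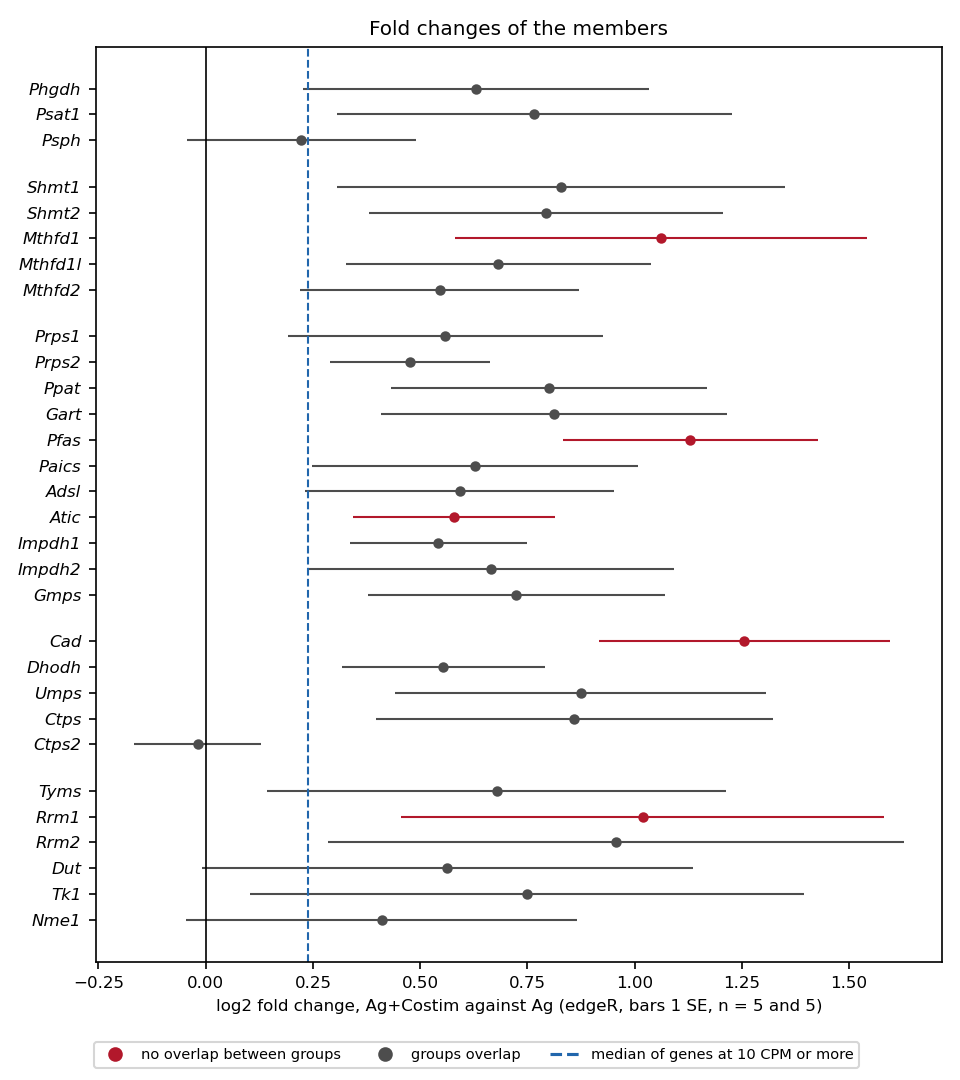
Log2 fold change of each member, Ag+Costim against Ag, from edgeR, with bars of 1 SE (n = 5 and 5), red for the 5 members whose groups do not overlap. All points but Ctps2 lie above 0, and the dashed line is the median of 0.24 over genes with a mean of at least 10 CPM.

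No gene of serine synthesis separated the groups, and 2 of the 5 Ag libraries reached the Ag+Costim levels of all 3. Phgdh, whose product commits 3-phosphoglycerate to serine, had 129, 517, 296, 144 and 605 CPM in Ag replicates 1 to 5 and 506, 485, 492, 596 and 538 CPM in Ag+Costim replicates 1 to 5. Ag replicates 1 and 4 lay far below the rest and Ag replicate 5 above all, so the groups overlapped, with a log2 fold change of 0.63 ± 0.40 (SE) (adjusted p = 0.35). Psat1, the transaminase of the next step, had 45.4, 232, 135, 54.6 and 289 CPM in Ag and 235, 228, 252.4, 306 and 264 CPM in Ag+Costim. The Ag libraries fell in the same order, with a log2 fold change of 0.77 ± 0.46 (SE) (adjusted p = 0.33). Psph, the last phosphatase, ranged over 44.3 to 119.6 CPM in Ag and 80.8 to 87.0 CPM in Ag+Costim and had the smallest log2 fold change of the 3, 0.22 ± 0.27 (SE). It overlaps Cct6a on the other strand by 452 bases, and the kit does not mark strand, so strand cannot separate reads of the shared bases.

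In the folate cycle, Mthfd1 was the 1 gene of 5 without overlap. Mthfd1 (chr12:76255298-76319803, mm10), the cytosolic trifunctional enzyme that interconverts folate carbon units, had 38.9, 216, 157, 42.0 and 225 CPM in Ag and 247, 246, 241, 372 and 311 CPM in Ag+Costim. All Ag+Costim libraries lay above all Ag libraries, though replicates 2 and 5 of Ag came close to the lowest of them, and the log2 fold change was 1.06 ± 0.48 (SE) (adjusted p = 0.27). Shmt1, the cytosolic serine hydroxymethyltransferase, had 13.4, 74.0, 48.7, 13.3 and 106 CPM in Ag and 81.9, 79.1, 81.8, 114 and 96.8 CPM in Ag+Costim. Its Ag libraries spanned 7.97-fold, and Ag replicate 5 exceeded 4 of the 5 Ag+Costim libraries (log2 fold change 0.83 ± 0.52 (SE)).

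The mitochondrial arm overlapped between groups throughout. Shmt2, the mitochondrial enzyme that takes the carbon unit from serine, had 64.9, 265, 159, 68.9 and 311 CPM in Ag and 272, 277, 293, 349 and 314 CPM in Ag+Costim, with a log2 fold change of 0.79 ± 0.41 (SE) (adjusted p = 0.29). Mthfd2, the mitochondrial dehydrogenase and cyclohydrolase, had 57.2, 182, 95.4, 71.7 and 196 CPM in Ag and 165, 164, 172, 203 and 175 CPM in Ag+Costim. Ag replicates 2 and 5 stood above 4 of the 5 Ag+Costim libraries, and the log2 fold change was 0.55 ± 0.33 (SE) (adjusted p = 0.33). Mthfd1l, which releases formate from mitochondria, ranged over 33.9 to 144 CPM in Ag and 129.5 to 165 CPM in Ag+Costim (log2 fold change 0.68 ± 0.36 (SE)).

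Of the 11 purine genes, 2 separated the groups under TMM scaling, Pfas and Atic, and all 11 had a log2 fold change above 0 (median 0.63). Pfas (chr11:68985697-69008460), the formylglycinamidine synthase of the fourth step, had 7.04, 16.7, 17.7, 7.38 and 19.0 CPM in Ag and 26.0, 26.5, 26.9, 34.9 and 34.0 CPM in Ag+Costim. Its Ag+Costim mean was 1.77 times the level of Ag replicate 2 and 1.56 times that of Ag replicate 5, the 2 libraries in which most other members matched Ag+Costim, and the log2 fold change was 1.13 ± 0.30 (SE) (adjusted p = 0.19). Pfas was also the lowest of the 30 members per length of transcript, with 4.17 ± 1.68 TPM in Ag and 7.26 ± 1.03 TPM in Ag+Costim (mean ± SD). TPM are counts divided by transcript length and scaled to the same sum in each library. They carry no TMM factor, so group differences in TPM and in CPM are not on 1 scale. Atic (chr1:71557150-71579631), which closes the purine ring, had 35.0, 67.0, 58.6, 29.5 and 64.9 CPM in Ag and 67.7, 71.9, 71.5, 90.2 and 79.5 CPM in Ag+Costim. The highest Ag library (67.0) and the lowest Ag+Costim library (67.7) nearly touched, and the groups overlapped under each other scaling. The log2 fold change was 0.58 ± 0.24 (SE) (edgeR adjusted p = 0.26).

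Ppat, the amidotransferase of the committed step, had 33.2, 122, 82.5, 36.0 and 121 CPM in Ag and 125, 127, 115, 178 and 142 CPM in Ag+Costim, with 4 Ag+Costim libraries above all Ag libraries and a log2 fold change of 0.80 ± 0.37 (SE) (adjusted p = 0.27). Ppat and Paics lie head to head, and their annotated 5′ ends share 272 bases. Gart, which carries 3 activities of the pathway on 1 protein, had 58.9, 204, 156, 55.3 and 252.3 CPM in Ag and 204, 221, 262, 307 and 280.3 CPM in Ag+Costim (log2 fold change 0.81 ± 0.40 (SE)). Impdh2, the inducible dehydrogenase that opens the guanine branch, had 50.7, 213, 128, 51.4 and 255 CPM in Ag and 209, 208, 215, 256 and 219.7 CPM in Ag+Costim. Ag replicate 5 lay above 4 Ag+Costim libraries, and the log2 fold change was 0.67 ± 0.43 (SE) (adjusted p = 0.35). A processed copy, Impdh2-ps, was counted at 12.1 to 62.9 CPM in Ag and 51.1 to 68.0 CPM in Ag+Costim, so the Impdh2 counts may be split between the copies.

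The other 6 purine genes overlapped between groups. Prps1 and Prps2, which make activated ribose, had log2 fold changes of 0.56 ± 0.37 (SE) and 0.48 ± 0.19 (SE), and Prps2 varied least of the purine genes among Ag libraries (48.4 to 88.1 CPM, against 87.0 to 114 CPM in Ag+Costim). Impdh1, the other dehydrogenase of the guanine branch, ranged over 65.7 to 136 CPM in Ag and 134 to 146 CPM in Ag+Costim (log2 fold change 0.54 ± 0.21 (SE)). Paics, Adsl and Gmps, which act in the middle of the pathway and at the step to GMP, had log2 fold changes of 0.63, 0.59 and 0.72.

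Cad showed the largest difference of the 30 members. It lies at chr5:31054780-31078479 and encodes the protein that carries the first 3 activities of pyrimidine synthesis. Cad had 29.4, 96.8, 114, 47.7 and 98.6 CPM in Ag and 145, 165, 182, 216 and 215 CPM in Ag+Costim, a mean of 77.4 ± 36.6 against 185 ± 31.1 (SD, n = 5 each). Its Ag+Costim mean was 1.91 times the level of Ag replicate 2 and 1.87 times that of Ag replicate 5, and the highest Ag library was replicate 3, with 114 CPM. The log2 fold change was 1.26 ± 0.34 (SE) (edgeR adjusted p = 0.19, DESeq2 adjusted p = 0.012).

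Umps, which makes UMP, had 40.0, 188, 116, 42.1 and 191 CPM in Ag and 184, 195, 195, 270.3 and 215 CPM in Ag+Costim, with 4 Ag+Costim libraries above all Ag libraries (log2 fold change 0.87 ± 0.43 (SE)). Ctps, the CTP synthase known to be needed for lymphocyte proliferation, had 16.2, 77.1, 44.4, 17.6 and 98.9 CPM in Ag and 79.9, 86.0, 83.8, 117 and 94.0 CPM in Ag+Costim. Its lowest and highest Ag libraries differed 6.09-fold, and the log2 fold change was 0.86 ± 0.46 (SE) (adjusted p = 0.30). Ctps2, its paralog, had 106, 134, 83.1, 120.3 and 129 CPM in Ag and 117, 116, 105, 114 and 113 CPM in Ag+Costim. It was the only member below 0, with a log2 fold change of −0.02 ± 0.15 (SE), and its sign changed with the processing. Dhodh, the mitochondrial enzyme of the fourth step, ranged over 23.2 to 58.2 CPM in Ag and 46.5 to 57.5 CPM in Ag+Costim, with Ag replicate 5 above and the other 4 Ag libraries below every Ag+Costim library (log2 fold change 0.55 ± 0.24 (SE)).

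The deoxynucleotide genes had the widest spread among Ag libraries. Rrm2, the small, cell-cycle regulated subunit of ribonucleotide reductase, had 100.3, 1255, 752, 102 and 1458 CPM in Ag and 1286, 1351, 1205, 1789 and 1480.0 CPM in Ag+Costim. Its Ag libraries spanned 14.5-fold and its Ag+Costim libraries 1.48-fold, and the log2 fold change was 0.96 ± 0.67 (SE) (adjusted p = 0.39). Rrm1 (chr7:102441695-102469771), the large catalytic subunit, had 96.5, 843, 558, 105 and 783 CPM in Ag and 899, 875, 875, 1163 and 1022 CPM in Ag+Costim. The groups did not overlap, while the Ag libraries spanned 8.74-fold, and the log2 fold change was 1.02 ± 0.56 (SE) (adjusted p = 0.31).

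Tyms, which makes thymidylate with folate as carbon donor, had 48.8, 338, 173, 50.5 and 386 CPM in Ag and 303, 298, 303, 374 and 316 CPM in Ag+Costim, with Ag replicate 5 above every Ag+Costim library (log2 fold change 0.68 ± 0.53 (SE), adjusted p = 0.43). Tk1, the salvage kinase of thymidine, ranged over 22.1 to 299 CPM in Ag and 223 to 281 CPM in Ag+Costim. Dut, which removes dUTP, ranged over 61.2 to 587 and 380.1 to 529 CPM, and Nme1, a nucleoside diphosphate kinase, over 128 to 774 and 458 to 610.0 CPM. For all 3, Ag replicate 5 exceeded every Ag+Costim library. Tk1 lies wholly within another annotated gene on the other strand (Gm20708, mean 5.44 CPM), and Nme1 mostly within one on its own strand (Gm20390, mean 8.50 CPM). Gm20390 was counted at 10.8 CPM in Ag replicate 1 and at 29.0 and 45.1 CPM in Ag+Costim replicates 1 and 3. It was at 0 in every other library, so Nme1 counts may be split with it in some libraries only.

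Compared per length of transcript, Rrm2 was the highest member in both groups (496 ± 368 TPM in Ag and 999 ± 150.1 TPM in Ag+Costim). Dut followed (311 ± 202 and 436 ± 49.9), then Phgdh (275 ± 118 and 422 ± 32.9). In Ag+Costim, Dut and Phgdh did not differ beyond their SD, nor did Nme1 (269 ± 25.6) and Tk1 (264 ± 22.4), whereas Rrm1 (370.1 ± 44.6) lay below Dut and Phgdh by more than the SD of each. In Ag, the SD of each of these genes exceeded its distance to its neighbours in the order. Shmt2 stood above Shmt1 on this scale in both groups (206 ± 18.7 against 49.1 ± 7.33 in Ag+Costim).

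The deoxynucleotide genes moved further among Ag libraries than the other 4 branches, and by about as much as 26 genes of proliferation (Mki67, Top2a, the Mcm genes and others). The level of a list was taken as its mean log2(CPM + 0.5), and the difference from its own Ag+Costim mean was read in each Ag library. In Ag replicate 1, this difference was −3.00 for deoxynucleotide genes and −3.01 for proliferation genes, against −1.81 for serine, −2.28 for folate, −1.71 for purine and −1.73 for pyrimidine genes. Ag replicate 4 gave −2.92 for deoxynucleotide genes, −2.92 for proliferation genes and −2.07 to −1.50 for the other branches. In Ag replicate 3, the 5 branches stood at −0.84 to −0.69 and proliferation genes at −0.80. In Ag replicates 2 and 5, the difference was 0.03 and 0.23 for deoxynucleotide genes and −0.33 and −0.10 for pyrimidine genes. CD8 T cell markers did not share this order, with 0.18 and 0.32 in Ag replicates 1 and 4, −0.54 in replicate 3, and 0.21 and 0.40 in replicates 2 and 5. B cell markers stood at 1.82 and 2.34 in Ag replicates 1 and 4, 3.23 in replicate 3, and −0.97 and −0.87 in replicates 2 and 5, so they were highest where nucleotide genes were intermediate or low. In sorted populations of this kind, a smaller share of dividing cells and less of these transcripts per cell cannot be told apart.

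**Figure D3:**
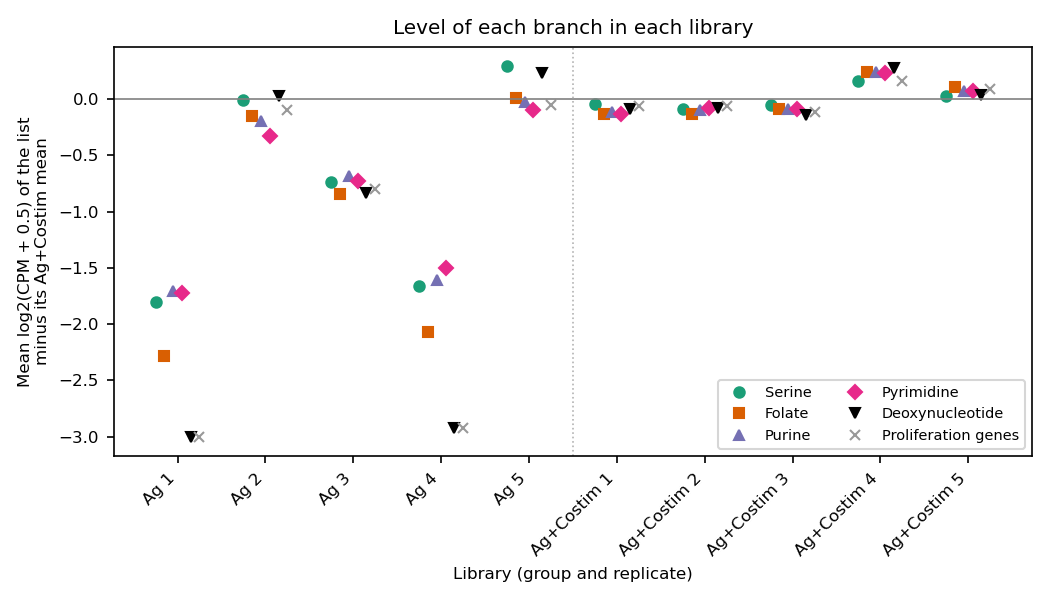
Mean log2(CPM + 0.5) of each branch and of 26 proliferation genes in each of 10 libraries, as a difference from the list's own Ag+Costim mean, with a marker per list. In Ag replicates 1 and 4 the deoxynucleotide and proliferation genes lie between −3.01 and −2.92, and the other branches between −2.28 and −1.50.

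Ratios within a library do not depend on scaling, and were read for pairs of enzymes that share a step or split it between compartments. Of 6 pairs of related enzymes, 3 had an unadjusted exact permutation p under 0.05, and none had a BH adjusted p under 0.05 over the 6. The smallest p that the assignments of 5 against 5 libraries can give is 0.0079 (two-sided). Mthfd1l was lower relative to Mthfd1 in Ag+Costim, with a mean log2 ratio of −0.96 ± 0.22 against −0.43 ± 0.44 in Ag (SD, n = 5 each; exact permutation p = 0.016, adjusted 0.063). Mthfd2 was lower relative to Mthfd1 in the same way, with −0.67 ± 0.17 against 0.03 ± 0.61 (exact permutation p = 0.032, adjusted 0.063). Both ratios share Mthfd1, so they are not separate evidence. For Mthfd2, Ag replicates 1, 2, 4 and 5 (0.55, −0.25, 0.76 and −0.20) lay above every Ag+Costim library (−0.88 to −0.49), and Ag replicate 3 (−0.72) lay within their range. Ctps was higher relative to Ctps2, with −0.31 ± 0.22 in Ag+Costim against −1.50 ± 1.12 in Ag (exact permutation p = 0.024, adjusted 0.063). Only Ag replicate 5 (−0.38) reached the range of Ag+Costim (−0.55 to 0.04), and replicates 1 and 4 stood at −2.68 and −2.74. Without Ag replicate 3, all 3 of these ratios had an adjusted exact p under 0.05 (0.024, 0.024 and 0.048), and without Ag replicate 5 the Mthfd1l and Ctps ratios did (0.048 each).

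The other 3 ratios overlapped widely. The differences in mean log2 ratio were −0.20 for Shmt2 to Shmt1, 0.37 for Impdh2 to Impdh1 and −0.27 for Prps2 to Prps1 (exact permutation p = 0.31, 0.33 and 0.33, each 0.33 adjusted). In these pairs, Ag replicates 1 and 4 lay on 1 side of the Ag+Costim range and Ag replicate 5 on the other. Impdh2 to Impdh1 was −0.37 and −0.41 in Ag replicates 1 and 4, 0.86 and 0.91 in replicates 2 and 5, and 0.59 to 0.89 in Ag+Costim.

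**Figure D4:**
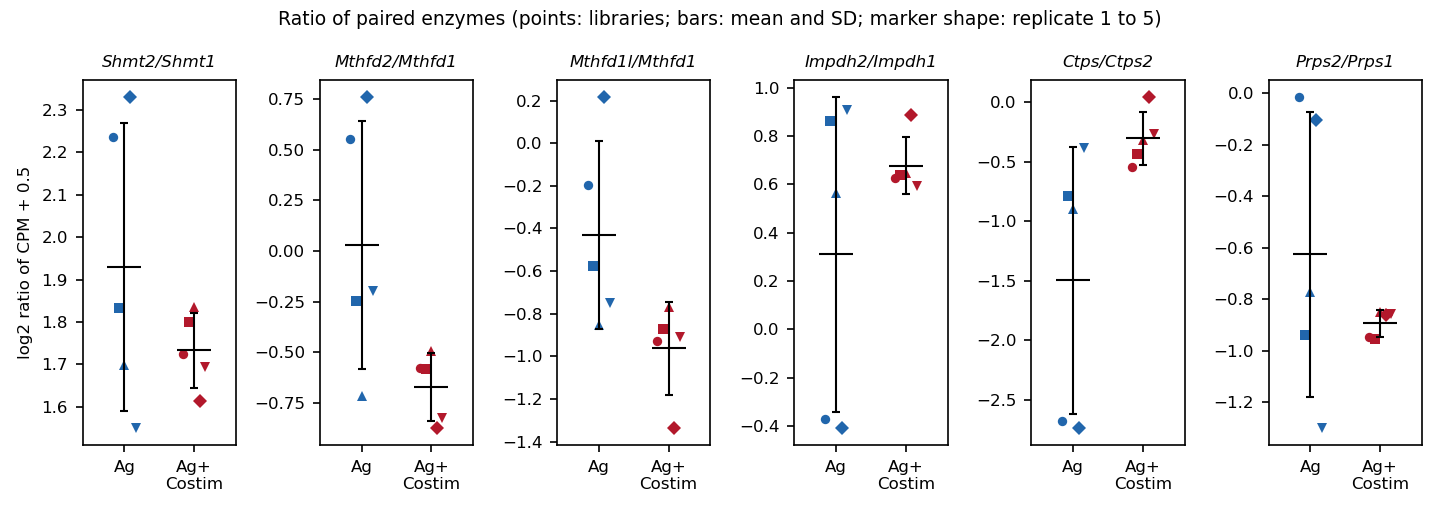
Log2 ratio of CPM + 0.5 for 6 pairs of enzymes in each library (points; marker shape gives the replicate), with the mean and SD of each group. For Mthfd2, Mthfd1l and Ctps against their partners most Ag libraries lie outside the Ag+Costim range, and for the other pairs the Ag libraries lie on both sides of it.

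Transcript usage was called where the Simes BH adjusted p of edgeR's diffSpliceDGE was under 0.05 and a mean share differed by more than 0.1. Of 28 members with more than 1 transcript tested, 0 were called, against 0.297% of 10441 genes, and 2 (7.14%) had an unadjusted p under 0.05, against 6.42% of all genes. A single transcript held at least 90% of counts in both groups for 15 of 30 members. Cad passed the adjusted threshold (adjusted p = 0.00057) with a minor transcript, Cad-211, that was listed at 0 in every Ag library and held 0.53 to 3.05% of Cad counts in Ag+Costim. Its share difference was 1.19 percentage points, far below the 10 required.

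Dut showed the largest shift in means. Dut-202, which starts upstream and encodes 200 residues, held 71.1, 49.3, 34.0, 68.3 and 46.3% of Dut counts in Ag and 27.7, 37.7, 44.0, 28.7 and 33.1% in Ag+Costim. The remainder was nearly all Dut-201, which encodes 162 residues, and the difference of 19.6 percentage points did not pass the test. Dut-201 is annotated to end further downstream than Dut-202. In the authors' pooled percent spliced in values, that further end (chr2:125257749-125258608) had only 0.012 in Ag and 0.015 in Ag+Costim. The Dut-201 shares are thus not borne out by that measure, and the cause was not tested. In mammals, Dut is known to give a nuclear and a mitochondrial form from alternative first exons. Gart-209, 1 of 2 main transcripts with the same coding length of 1010 residues, held 44.7 to 80.5% in Ag and 62.7 to 79.2% in Ag+Costim. For Tyms, the coding transcript Tyms-201 held 28.0 to 45.2% of counts in 9 libraries and 71.8% in Ag replicate 5, and the retained-intron transcript Tyms-206 held 34.0 to 50.8% and 5.88%. The main transcript of Impdh1 held 65.1 to 82.3% in 9 libraries and 19.4% in Ag replicate 3, the shallowest library.

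In Pfas, the full coding transcript took a larger share in every Ag+Costim library. Pfas-201 held 83.4, 95.8, 80.7, 92.1 and 93.8% of Pfas counts in Ag and 99.1, 98.1, 98.1, 99.3 and 98.7% in Ag+Costim, without overlap. The retained-intron transcript Pfas-206 held 1.84 to 12.6% in Ag and 0.39 to 1.52% in Ag+Costim. The gene-level adjusted p was 0.42, so the difference did not pass. The share of all genes that separate in this way was not counted. The direction was not particular to Pfas. The main coding transcript of Atic had a mean share of 87.1% in Ag and 95.6% in Ag+Costim, with overlap. That of Paics went the other way (90.7% and 88.5%). A retained-intron transcript had a higher mean share in Ag for Atic, Psph and Dhodh too. The main transcript of Prps2 held 97.70 to 98.98% in Ag and 99.00 to 99.29% in Ag+Costim. Dhodh-201, the main coding transcript of Dhodh, likewise held 68.0 to 90.2% in Ag and 90.4 to 93.7% in Ag+Costim.

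The percent spliced in (PSI) values that the authors pooled within each group gave 423 events in the 30 members, 367 of them core exons. There is 1 value per group and no replicate check. Of all events in the table, which were not matched to those of members by event type or expression, 5.87% differed by more than 0.1. Among members only 2 events (0.473%) did, and both were transcript start nodes of Impdh1. The node at chr6:29216332-29216342 went from 0.70 in Ag to 0.51 in Ag+Costim, and its neighbour at chr6:29216343-29216364 from 0.22 to 0.34. In Paics, an alternative donor (chr5:76951402-76951668) had 0.85 and 0.76, and the intron after it (chr5:76951669-76951768) was retained at 0.76 and 0.67. This donor segment lies partly within the 272 bases that Paics shares with Ppat. Core exons were nearly always included, at a median of 0.9989 in Ag and 0.9996 in Ag+Costim. The 26 core exons of Pfas all were higher in Ag+Costim, the median being 0.96 in Ag and 0.99 in Ag+Costim. That direction was not particular to Pfas. The listed core exons of Cad, Mthfd1, Gart and Rrm1 also were all higher, mostly by less, whereas Ctps2 had exons in both directions.

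Outside the 30 members, 45 further genes of the same pathways were read (transport and salvage of folate, methionine cycle, purine and pyrimidine interconversion, deoxynucleotide salvage). None was called by edgeR. At an unadjusted edgeR p under 0.05, 9 of 45 were higher, against 7.89% of all genes tested, and 1 was lower. Over all genes tested, 1915 of the 4501 genes with such a p were higher and the rest lower. Without overlap, 4 (8.89%) were higher, against 4.48% of all genes tested and 11.3% of genes with a mean of at least 10 CPM. Of the 45 genes, 34 reached that mean, so this count was near the share of expressed genes. DESeq2 called 4 of the 45 higher, against 2.57% of genes, and 2 lower. Of 36117 genes, DESeq2 called 8046, of which 930 were higher, so most of its calls were lower. Their median log2 fold change was 0.32, against 0.68 for the 30 members and 0.24 for expressed genes. Mtrr, which reactivates methionine synthase, had 20.0, 28.2, 21.3, 23.6 and 24.1 CPM in Ag and 31.8, 35.6, 35.0, 39.2 and 43.3 CPM in Ag+Costim (log2 fold change 0.66 ± 0.14, adjusted p = 0.14). Slc25a32, the carrier of folate into mitochondria, had 25.7, 28.1, 25.9, 23.4 and 33.9 CPM in Ag and 44.0, 41.9, 37.6, 49.9 and 41.3 CPM in Ag+Costim (log2 fold change 0.65 ± 0.14, adjusted p = 0.14). In both genes the 5 Ag libraries lay close together, with replicates 1 and 4 near the others, and all lay below Ag+Costim. Mat2a, which makes S-adenosylmethionine, and Dck, the deoxycytidine kinase, were the other 2 without overlap, with log2 fold changes of 0.65 ± 0.20 and 0.66 ± 0.26.

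In salvage and breakdown, the order of libraries was reversed for some genes. Dguok, the mitochondrial deoxyguanosine kinase, had 81.7, 59.1, 37.8, 79.7 and 65.5 CPM in Ag and 47.3, 48.0, 53.0, 42.7 and 44.4 CPM in Ag+Costim, with Ag replicates 1 and 4 highest (log2 fold change −0.46 ± 0.20, adjusted p = 0.27). Among purine and pyrimidine genes, the lowest p belonged to Ampd2, an AMP deaminase (log2 fold change 0.52 ± 0.18), Adss, which makes adenylosuccinate (0.34 ± 0.17), Dctd, the dCMP deaminase (0.82 ± 0.33), and Cda, a cytidine deaminase that reached at most 2.90 CPM, in Ag replicate 3 (−3.81 ± 1.93). All 4 overlapped between groups.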

How the data were processed

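Poly(A) RNA was amplified with SMART-Seq v4, and the authors aligned reads to mm10 with HISAT2 (2.1.0), sorted them with SAMtools (1.9) and counted genes and transcripts with StringTie (2.1.0). The deposited values are expected counts (estimated from coverage, not normalized); of 81881 entries, 55536 matched GENCODE M21 and the rest, at most 0.308% of a library, were left out. The kit does not mark strand. The authors also deposited PSI as a fraction, 1 pooled value per group from Whippet; their own difference and probability columns were not used.

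Libraries were grouped by the labels. Counts were rounded and tested with edgeR 4.0.16 (filterByExpr, TMM, robust quasi-likelihood, BH threshold 0.05 over all genes) in R 4.3.3, with DESeq2 1.42.0 and limma 3.58.1 beside it. Transcript usage used diffSpliceDGE, and ratios an exact permutation test. CPM are TMM-scaled. Per-length levels (TPM) are counts divided by transcript length and scaled to the same sum in each library, without the TMM factor. The fits were tested on simulated data. The usage test alone called too many unchanged genes there, so its calls also need the share difference. Members, lists and tests were chosen with earlier results of these data known. Values in every library are given for members without overlap, the 2 largest fold changes in each direction per branch and the rate-limiting enzymes, and from each list of other genes the 2 lowest p. The 10 CPM minimum for expressed genes and the per-length order were chosen after seeing the data. Alternatives were other scalings, no filter, other tests, a replicate block and leaving out each library. Replicate numbers are not stated to pair the libraries and were not used as pairs in the main test.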

Additional observations from a re-analysis of the deposited data

Results flagged for a closer look

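Ag+Costim replicate 4 stood apart from the other 4 libraries of its group in 6 of 72 groups of 5 values examined (30 members and 6 ratios in each group). Chance flags about 1 in 20 single groups, but members and ratios come from the same libraries. The 6 flags are thus not independent and cannot be set against that rate. Ag+Costim replicate 4 was the highest for Mthfd2 (203 CPM, the next at 175), Adsl (304 CPM, the next at 248), Impdh2 (256 CPM, the next at 219.7) and Tyms (374 CPM, the next at 316). Its log2 ratio of Mthfd1l to Mthfd1 was the lowest of the group (−1.34, the nearest at −0.93), and that of Impdh2 to Impdh1 was the highest (0.89, the nearest at 0.65). The same library was the highest of its group for 26 of 30 members. No Ag library was flagged by this measure, which takes a single library far from the rest, whereas Ag replicates 1 and 4 lay low together.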

How the results depend on the processing

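No member was called by edgeR under any of 3 other scalings, without the filter, with the replicate block or without any 1 library. DESeq2 called 2 and limma voom with library weights 29 members higher, and no alternative called a member lower. Over all genes, 930 of the 8046 DESeq2 calls were higher and the rest lower. The median log2 fold change of the members was 0.68 and went to 1.84 under those weights, with 1.73 for serine, 1.95 for folate, 1.62 for purine, 2.04 for pyrimidine and 2.65 for deoxynucleotide genes; that fit differs from edgeR in more than the weights, and the cause was not tested. Leaving out 1 library gave medians of 0.47 to 1.01 for the members, 0.42 to 0.96 for serine, 0.59 to 1.12 for folate, 0.45 to 0.94 for purine, 0.63 to 1.15 for pyrimidine and 0.45 to 1.13 for deoxynucleotide genes. Members without overlap numbered 5, 2 under upper quartile scaling and 5 to 11 when 1 library was left out, highest without Ag replicate 5. Which members separated also changed with the scaling. They were Cad, Mthfd1, Pfas and Rrm1 under DESeq2 size factors. Under total counts they were Impdh1, Mthfd1, Pfas, Prps2, Rrm1 and Umps. Of the single log2 fold changes, only that of Ctps2 (−0.02) changed sign: 0.27 without the filter, 0.028 in limma, and between −0.11 and 0.062 when 1 library was left out (above 0 without Ag replicate 2, 4 or 5 or Ag+Costim replicate 3); the cause was not tested. The log2 ratio differences without 1 library ran from −0.64 to −0.37 for Mthfd1l to Mthfd1, −0.89 to −0.52 for Mthfd2 to Mthfd1 and 0.88 to 1.47 for Ctps to Ctps2. Another prior or per-length levels moved no ratio past its threshold, and transcript usage called 0 members throughout. The labels do not state that replicate numbers pair the libraries. Deviations of same-numbered libraries correlated at −0.10 to 0.11, which cannot exclude a pairing because the Ag libraries differ widely among themselves. With the replicate block the median of the members was 0.97 and 0 members were called. What depth limits was not measured: totals come from amplified cDNA, and the Ag library with the fewest counts (replicate 3) had the most genes with a count.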

Other observations

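Of the 26 proliferation genes, 8 (30.8%) were higher in Ag+Costim without overlap, against 11.3% of genes with a mean of at least 10 CPM. None was called by edgeR. Pola1, the polymerase subunit of the DNA polymerase alpha-primase complex that starts new DNA strands, had 20.7, 84.9, 56.2, 24.5 and 38.6 CPM in Ag and 95.4 to 119 CPM in Ag+Costim, with a log2 fold change of 1.24. Mki67, the proliferation antigen Ki-67, had 93.4, 402, 241, 98.3 and 222 CPM in Ag and 416 to 469 CPM in Ag+Costim, with a log2 fold change of 1.10. For both genes the highest Ag library was replicate 2, whereas it was replicate 5 for 19 of the 26 proliferation genes and for 24 of 30 nucleotide genes.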
